A study of Mus musculus with 6 samples.

Results

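The DNA replication machinery is described here as 44 genes, chosen by name, in testes of mice lacking Hsf5 and of control mice at postnatal day 16. The 44 members were the rows of the deposited expression table whose symbol is on the list, out of 29333 rows in all, and every symbol was found. They fall into 10 roles: the MCM2-7 helicase, its partners CDC45, GINS and MCM10, origin recognition and licensing, the DDK kinase, primase with polymerase alpha, polymerases delta and epsilon, PCNA with its clamp loader, RPA, Okazaki fragment maturation and ribonucleotide reductase. The study asked what HSF5, a member of the heat shock transcription factor family, does in male reproduction, and sequenced RNA from whole testis. The knockout testes are given as Hsf5-/-. The controls are labelled wild type, while the design text allows wild type or Hsf5+/- animals, so a heterozygous control cannot be told apart here. No label states the strain, how the allele was made or which part of the gene was removed. The labels list 3 samples per group, of which 2 per group were analysed here: control 1 and 2, and knockout 1 and 3. The labels do not say that the samples came from separate animals, so the p-values measure the spread between these libraries, which may be technical.

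Replication starts when the origin recognition complex, CDC6 and CDT1 load the MCM2-7 ring onto DNA, a step that geminin blocks once S phase has begun. The DDK kinase, CDC45 and the GINS complex then turn the ring into a working helicase, primase with polymerase alpha lays down primers, and polymerases delta and epsilon extend them while held by the sliding clamp PCNA. RPA coats the exposed single strands, FEN1 and LIG1 join the lagging-strand pieces, and ribonucleotide reductase supplies the deoxynucleotides. In the testis these genes serve dividing spermatogonia and the last S phase before meiosis, and RPA and some others are also used in meiotic recombination. Many of their promoters carry sites for E2F, the factor that opens the S phase programme.

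Promoter sequences are printed first, for the 3 called members that have one and for Mcm6, chosen after the search because it has the most E2F matches of the members. RefSeq promoters (build GRCm38.p6, 250 bases before to 50 after a start) matched 36 of the 44 members, and Rfc2 was among the 8 without an entry. Each line gives the 250 bases before the start, 5′ to 3′ on the gene's strand, with motif matches in capitals. They are Mcm2 at chr6:88898781-88899030, Pcna at chr2:132253181-132253430, Rpa1 at chr11:75348384-75348633 and Mcm6 at chr1:128359706-128359955, all on the minus strand.
Mcm2: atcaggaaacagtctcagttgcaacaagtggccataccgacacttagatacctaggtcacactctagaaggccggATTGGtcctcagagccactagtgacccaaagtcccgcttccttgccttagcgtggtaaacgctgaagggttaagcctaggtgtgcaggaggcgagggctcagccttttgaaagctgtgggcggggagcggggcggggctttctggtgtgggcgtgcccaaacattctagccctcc
Pcna: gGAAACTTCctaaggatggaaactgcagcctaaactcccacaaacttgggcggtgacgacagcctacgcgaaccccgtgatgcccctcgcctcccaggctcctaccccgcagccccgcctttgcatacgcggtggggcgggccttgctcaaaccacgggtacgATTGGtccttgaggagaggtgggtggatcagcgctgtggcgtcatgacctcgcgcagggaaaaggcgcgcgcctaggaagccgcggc
Rpa1: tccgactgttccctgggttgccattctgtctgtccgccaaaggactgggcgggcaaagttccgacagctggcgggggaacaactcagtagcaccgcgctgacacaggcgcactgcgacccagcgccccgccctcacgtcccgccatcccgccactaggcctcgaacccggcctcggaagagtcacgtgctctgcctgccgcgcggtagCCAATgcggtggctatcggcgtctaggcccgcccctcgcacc
Mcm6: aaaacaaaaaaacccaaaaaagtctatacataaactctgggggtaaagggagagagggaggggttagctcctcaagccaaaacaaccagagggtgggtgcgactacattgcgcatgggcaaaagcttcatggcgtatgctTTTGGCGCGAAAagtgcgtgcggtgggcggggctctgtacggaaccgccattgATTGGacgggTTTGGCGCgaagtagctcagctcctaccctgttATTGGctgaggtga
The E2F letters searched were TTTCCCGC, TTTCGCGC, TTTGCCGC and TTTGGCGC, the CCAAT box was CCAAT, and the heat shock letters were TTCNNGAA and GAANNTTC, each on both strands. Mcm2 had no E2F match and 1 CCAAT box, 175 bases before the start. Pcna had no E2F match, 1 CCAAT box 87 bases before the start and 1 heat shock match 249 bases before it. Rpa1 had no E2F match and 2 CCAAT boxes, 42 bases before and 42 bases after the start, the second outside the bases shown. Mcm6, which was not called, had 3 E2F matches, at 110, 106 and 47 bases before the start, and the first 2 of these overlap on opposite strands. The 36 members have 44 promoters in the table, since some have several starts. E2F letters stood in 16 of these 44 promoters (36.4%), against 2.26% of all 32851 promoters of the same length. CCAAT stood in 54.5% of them against 37.4%, and the heat shock letters in 11.4% (Mcm5, Pcna, Pole3, Rpa2 and Rpa3) against 15.1%. Having no E2F match was not particular to the called members: it also held for 18 of the 33 matched members that were not called. In 2 member promoters matches to different motifs overlapped each other. A match describes letters and not a bound site, and no binding data were analysed here.

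The deposited values are normalised read counts, from which the whole reads could be recovered: 18259304 and 18557898 in the controls and 16824757 and 16209093 in the knockouts. Hsf5 itself read 2541 and 3147 normalised counts in the controls and 1926 and 1602 in the knockouts, so the knockout mean was 62.0% of the control mean. The difference in Hsf5 was -0.69 (log2, SE 0.12, limma adjusted p = 0.00716), and it missed the threshold when control 2 (adjusted p = 0.108) or knockout 3 (0.072) was left out. Reads over the whole gene do not show whether the removed part was lost. Spearman's rho across genes, which are not independent, reached 0.986 for the pair of controls and 0.993 for the pair of knockouts.

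By the sign of the fold change, the replication genes had no common direction in the knockout. The median log2 fold change, knockout over control, was -0.01 over the 44 members and 0.01 over all 17480 genes tested, and 22 members lay above 0 and 22 below. Members made up 0.366% and 0.345% of all normalised reads in the controls and 0.372% and 0.360% in the knockouts. Of the 44 members, all of which passed the filter on low values, Mcm2 rose, Pcna, Rfc2 and Rpa1 fell, and 40 were not called by limma at an adjusted p under 0.05. Among all genes tested 13.5% were called lower and 3.28% higher, or 16.8% in either direction. Of the members 6.82% were lower and 2.27% higher, shares below those of all genes. The edgeR test on the recovered reads called the same 4 genes in the same directions, with 12.3% of all genes lower and 2.96% higher. The authors' deposited table also calls these 4 and no other member, with 11.3% of its 20234 tested genes lower and 2.26% higher.

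The 2 groups did not overlap in 28 members (63.6%), 19 lower and 9 higher, and overlapped in 16. Among all genes tested the groups were apart in 61.7%, near the members' total. By direction, 43.2% of members were apart and lower against 31.9% of all genes, and 20.5% apart and higher against 29.8%. An unadjusted p under 0.05 was reached by 14 members and by 31% of all genes. The 95% interval of the fold change lay within 1.5-fold in either direction for 35 of 44 members, among them 34 of the 40 not called. Leaving Fen1 aside, the members not called ranged from -0.49 (Gins1) to 0.28 (Pola1) on the log2 scale. Among the members not called, the interval lay wholly below 0 in 9 and wholly above 0 in 1. The matching split over all genes was not computed, so whether this is particular to the members was not tested.

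**Figure D1:**
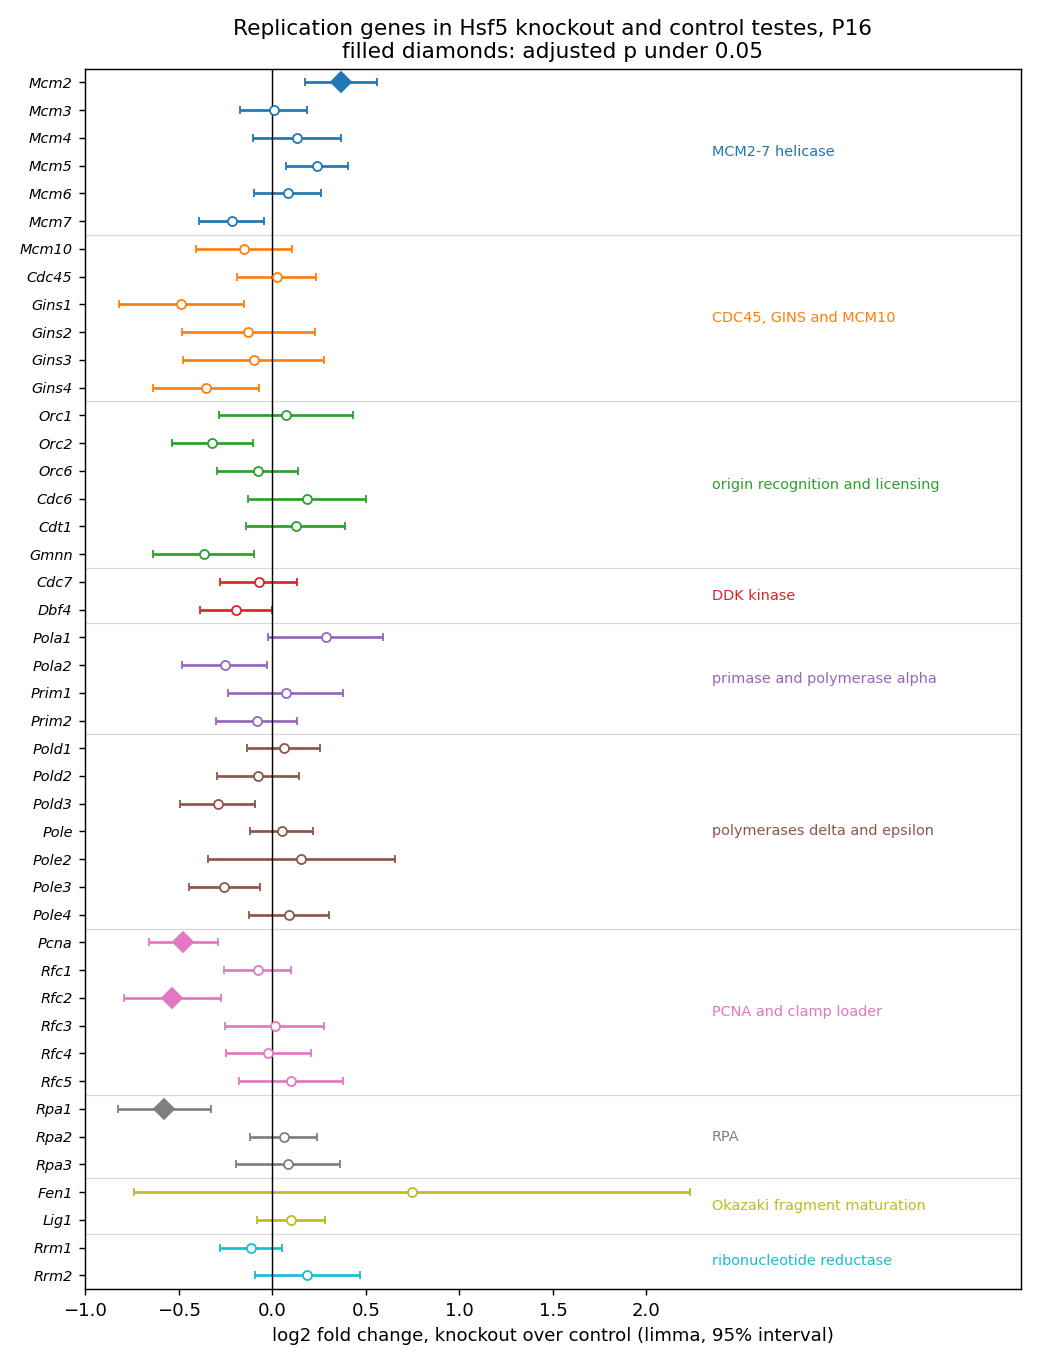
Log2 fold change of each of the 44 replication genes, knockout over control, on the x axis with its 95% limma interval, ordered by role on the y axis. Filled diamonds mark the called genes: Mcm2 at 0.37, Pcna at -0.47, Rfc2 at -0.53 and Rpa1 at -0.58. Of the 40 not called, 23 lie more than 0.1 from 0, and Fen1 has the widest interval, from -0.74 to 2.23.

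Library scaling sets where 0 lies, and it moved the members and all other genes alike. Scaling by library totals shifted the median of all genes by 0.11 on the log2 scale, scaling to Sertoli markers by -0.26 and scaling to spermatogonia markers by -0.29. Each of these scalings divides a library by a single factor. The median of the members minus that of all genes therefore had to stay nearly the same, at -0.02. Calls among members became 2 higher and 3 lower with library totals, 0 and 20 with Sertoli scaling, and 0 and 13 with spermatogonia scaling. Over all genes the split of 573 higher to 2366 lower became 1513 to 2006, 54 to 4780 and 29 to 3993, in the same order. Pcna, Rfc2 and Rpa1 stayed lower and called under all 3, while Mcm2 stayed above 0 but was not called after Sertoli scaling (0.11, adjusted p = 0.393) or spermatogonia scaling (0.08, adjusted p = 0.726).

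The MCM2-7 genes encode the 6 subunits of one ring, and they did not move together. Mcm2 read 2378 and 2118 normalised counts in the controls and 2850 and 2948 in the knockouts, so both knockouts stood above both controls. The means were 2248 ± 184 and 2899 ± 69.3 (SD, n = 2 each), a rise of 29.1% or 0.37 on the log2 scale (SE 0.084, 95% interval 0.18 to 0.56, limma adjusted p = 0.0195). In the authors' deposited table the change in Mcm2 is 0.37 with an adjusted p of 0.00706. Leaving out control 2 (adjusted p = 0.139), knockout 1 (0.0906) or knockout 3 (0.156) ended the call, and leaving out control 1 did not (0.0285). Mcm2 lies on chromosome 6, bases 88883474 to 88898780 of GRCm38, and shares no exon base with another gene in GENCODE M21. Mcm5 read 3022 and 2951 in the controls and 3600 and 3455 in the knockouts, again without overlap, a difference of 0.24 (interval 0.08 to 0.40) that missed the threshold (adjusted p = 0.0545). It passed with DESeq2 (adjusted p = 0.0341), with library totals (0.0133) and with only genes of a mean value of at least 50 (0.0484).

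Mcm7, the most counted of the 44 members, lay the other way. It read 4000 and 3780 in the controls and 3470 and 3224 in the knockouts, a difference of -0.22 (interval -0.39 to -0.04, adjusted p = 0.0896). Mcm3, Mcm4 and Mcm6 overlapped between the groups, with differences of 0.01, 0.13 and 0.08. The interval for Mcm3 ran from -0.17 to 0.19. Ratios within a library are free of scaling, and 13 pairs of members or of a member with Mki67 were computed after the values were seen. With 2 libraries a side an exact two-sided permutation test of such a ratio cannot go below p = 0.333, so they are given as values. Mcm2 to Mcm7 was 0.595 and 0.560 in the controls and 0.821 and 0.915 in the knockouts. Mcm2 to Mcm3 was 0.718 and 0.705 against 0.910 and 0.919, and Mcm5 to Mcm3 was 0.912 and 0.983 against 1.15 and 1.08. Subunits that assemble in equal number thus had transcripts in different proportion in the 2 pairs of libraries.

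**Figure D2:**
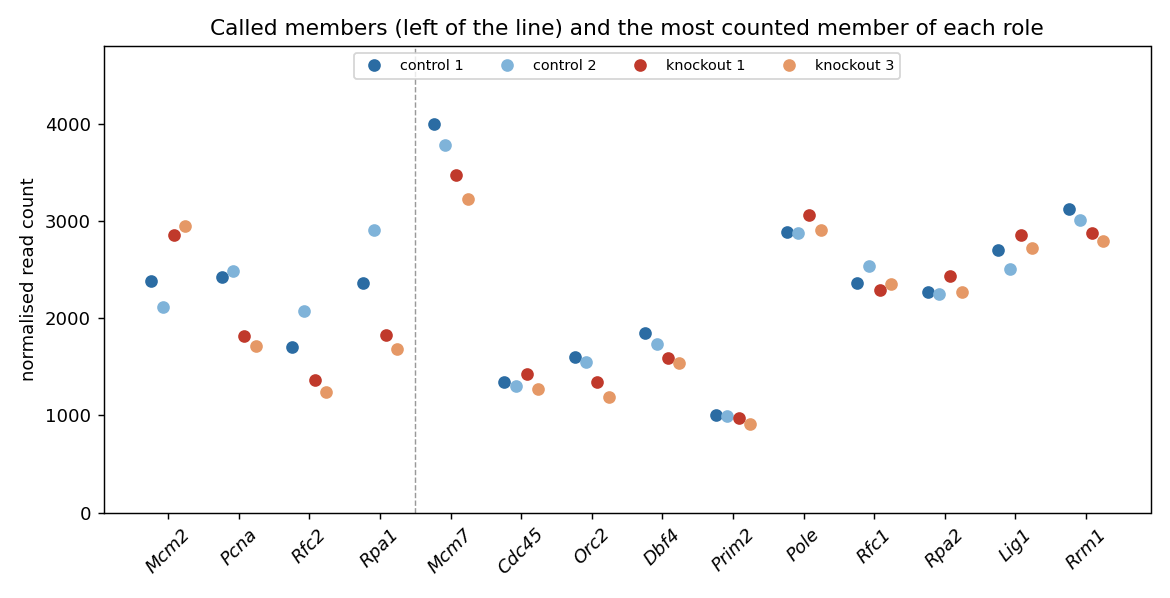
Normalised read counts of the 4 called members, left of the dashed line, and of the most counted member of each role, right of it. Each point is 1 library, coloured by library. Mcm2 is higher in both knockouts, Pcna, Rfc2 and Rpa1 are lower in both, and Cdc45 is the only gene of the 14 shown whose groups overlap.

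The helicase partners held no called gene. CDC45 acts with GINS and the MCM ring in the working helicase. Cdc45 read 1344 and 1306 in the controls and 1421 and 1274 in the knockouts, a difference of 0.02 (interval -0.19 to 0.24). The 4 GINS genes and Mcm10 all had differences below 0, from -0.49 to -0.10, and limma called 0 of the 6 genes in this role, as did edgeR, with 2 at an unadjusted p under 0.05. Those were Gins1, at 661 and 678 against 549 and 416 (-0.49, adjusted p = 0.0569), and Gins4, at 854 and 981 against 780 and 657 (adjusted p = 0.0907). Gins1 was the only member not called with all libraries that was called with 1 left out, and this was without knockout 1 (adjusted p = 0.0364). With library totals Gins3 turned to 0.01, and the other GINS genes stayed below 0 under each scaling tried.

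Origin recognition and licensing genes were mixed. Orc2, a core subunit of the origin recognition complex, read 1602 and 1553 in the controls and 1345 and 1185 in the knockouts, without overlap. Its difference was -0.32 (interval -0.54 to -0.10, adjusted p = 0.0527), and it passed only with the filter at a mean of 50 (0.0481) or after scaling to Sertoli (0.00725) or spermatogonia markers (0.0075). Of Orc2's exon bases 29.8% are shared with the antisense gene Nif3l1, which read 596 and 582 against 585 and 571. Gmnn, the gene of geminin, read 683 and 797 against 582 and 561 (-0.37, adjusted p = 0.0697). The loaders Cdc6 (353 and 420 against 435 and 442) and Cdt1 (615 and 545 against 647 and 617) stood higher in both knockouts by small amounts, 0.19 and 0.13, well short of the threshold. Orc1 (0.07) and Orc6 (-0.08) completed the role, in which limma and edgeR called 0 of 6 genes and 2 had an unadjusted p under 0.05.

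The DDK kinase, which fires licensed origins, consists of the catalytic subunit CDC7 and its activator DBF4. Dbf4 read 1847 and 1732 in the controls and 1589 and 1537 in the knockouts, and Cdc7 read 1219 and 1189 against 1179 and 1110. Both were lower in each knockout than in each control, by 0.19 or less, and limma and edgeR called neither (adjusted p = 0.155 for Dbf4, whose unadjusted p was under 0.05). Primase and polymerase alpha, which start every new strand, gave 0 calls among 4 genes by either tool and 1 unadjusted p under 0.05. Prim2, the large primase subunit, read 1003 and 993 against 970 and 915 (-0.08, interval -0.30 to 0.13). Pola1, the catalytic subunit, stood at 317 and 306 against 365 and 395, whereas its partner Pola2 stood at 829 and 853 against 693 and 717. The 2 partners thus lay apart in opposite directions, and neither passed (adjusted p = 0.193 and 0.124). Prim1 overlapped between the groups.

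Polymerases delta and epsilon copy the lagging and the leading strand. Pole, the catalytic subunit of epsilon, read 2885 and 2877 in the controls and 3061 and 2904 in the knockouts, a difference of 0.05 (interval -0.12 to 0.22). Pold1, the catalytic subunit of delta, differed by 0.06 (interval -0.13 to 0.25) and overlapped. The accessory subunits showed the larger differences. Pold3 read 1689 and 1709 against 1451 and 1325 (-0.29, adjusted p = 0.0546), and Pole3, a histone-fold subunit, read 2974 and 2913 against 2606 and 2328 (-0.26, adjusted p = 0.0696). Pole3 pairs with Pole4, which overlapped at 1500 and 1523 against 1719 and 1509, and their ratio was 1.98 and 1.91 in the controls against 1.52 and 1.54 in the knockouts. Limma and edgeR called 0 of the 7 genes, with 2 at an unadjusted p under 0.05, and Pold2 (-0.08) and Pole2 (0.16) were among the rest. Pold3 passed with the filter at a mean of 50 (adjusted p = 0.0483).

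PCNA is the ring that tethers the polymerases, and its transcript showed the smallest adjusted p of the 44. Pcna read 2420 and 2489 normalised counts in the controls and 1820 and 1713 in the knockouts, with a wide gap between the groups and only 0.04 (log2) between the controls. The means were 2454 ± 48.8 and 1766 ± 75.8 (SD, n = 2 each), so the knockouts held 72.0% of the control level. Pcna fell by 0.47 on the log2 scale (SE 0.079, interval -0.66 to -0.29, limma adjusted p = 0.00474), and the authors' deposited table gives -0.47 with an adjusted p of 0.000187. It did not pass when control 2 (adjusted p = 0.0592) or knockout 3 (0.062) was left out. The gene lies on chromosome 2, bases 132249162 to 132253314 of GRCm38, with no exon overlap. No source states how the counting treated reads shared with near-identical copies of Pcna, so its value is uncertain to that extent.

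The clamp loader opens the PCNA ring, and 1 of its 5 subunits was called. Rfc2 read 1701 and 2077 in the controls and 1362 and 1236 in the knockouts, without overlap, from 1889 ± 267 to 1299 ± 88.8 (SD, n = 2 each). It fell by 0.53 (SE 0.113, interval -0.79 to -0.28, limma adjusted p = 0.014), and the controls differed from each other by 0.29. Without control 2 the adjusted p was 0.12, and without knockout 3 it was 0.128. Rfc2 lies on chromosome 5, bases 134581366 to 134601805 of GRCm38, and shares 15.1% of its exon bases with the antisense gene Lat2, which read at most 15.9 in any library. Rfc1, the large subunit, read 2365 and 2535 against 2288 and 2352 (-0.08, interval -0.26 to 0.10). Rfc3, Rfc4 and Rfc5 overlapped, at 0.01, -0.02 and 0.10. The ratio of Rfc2 to Rfc1 was 0.719 and 0.820 in the controls and 0.595 and 0.526 in the knockouts, so the subunits of one pentamer differed in transcript proportion here too.

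RPA is a trimer that binds single-stranded DNA, in replication and also in meiotic recombination, and its largest subunit stood apart from the other 2. Rpa1 read 2363 and 2902 in the controls and 1831 and 1680 in the knockouts, from 2632 ± 381 to 1756 ± 107 (SD, n = 2 each), or 66.7% of the control level. It fell by 0.58 (SE 0.109, interval -0.83 to -0.33, limma adjusted p = 0.00848), the largest fall among the members, and the controls differed by 0.30. The authors' deposited table gives -0.58. Leaving out control 2 (adjusted p = 0.082) or knockout 3 (0.0867) ended the call. Rpa2 read 2264 and 2246 against 2436 and 2272 (0.06, interval -0.12 to 0.24), and Rpa3 read 436 and 413 against 460 and 439 (0.08). Both were slightly higher in the knockouts where Rpa1 was lower. The ratio of Rpa1 to Rpa2 was 1.04 and 1.29 in the controls and 0.752 and 0.739 in the knockouts, 0.642 of the control value. Rpa1 lies on chromosome 11, bases 75298166 to 75348324 of GRCm38.

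**Figure D3:**
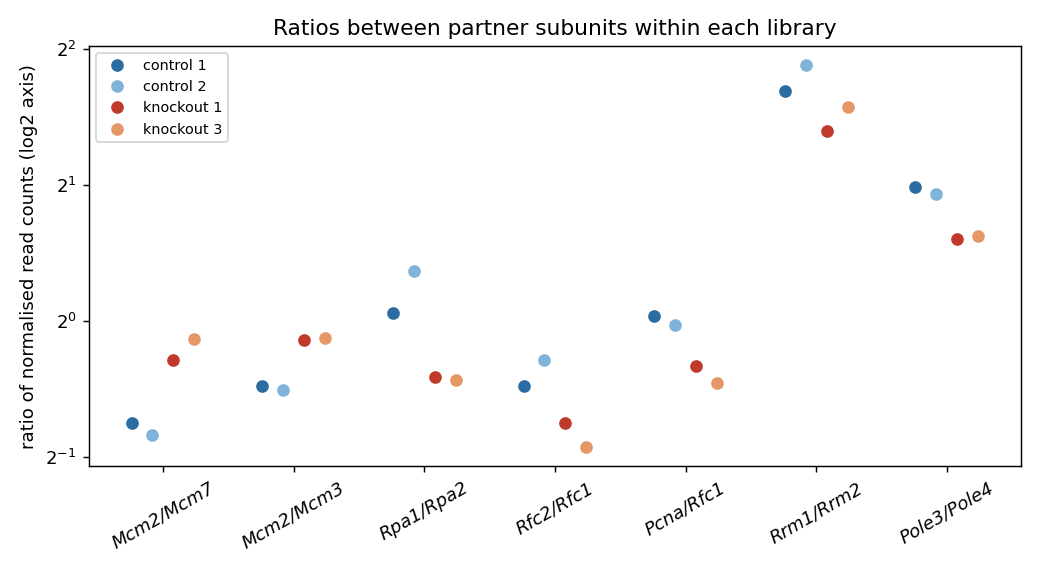
Ratios of normalised read counts between partner genes within each library, on a log2 axis, with 1 point per library. The 7 shown were picked from pairs formed after the values were seen, so their separation is no test. Mcm2 to Mki67, not shown, overlapped between the groups. The knockouts lie apart from the controls in all 7 ratios shown, upward for Mcm2 to Mcm7 and Mcm2 to Mcm3 and downward for Rpa1 to Rpa2, Rfc2 to Rfc1, Pcna to Rfc1, Pole3 to Pole4 and Rrm1 to Rrm2.

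LIG1 seals the nicks between Okazaki fragments after FEN1 trims their flaps. Lig1 read 2699 and 2501 in the controls and 2858 and 2719 in the knockouts (0.10, interval -0.08 to 0.28, adjusted p = 0.431). Fen1 was listed at only 31.0 and 6.94 against 28.1 and 23.6, and its interval of -0.74 to 2.23 says nothing of a change. Neither was called by limma or edgeR, and neither had an unadjusted p under 0.05. In GENCODE M21, 84.2% of Fen1's exon bases are shared with other genes, 78.8% with the antisense gene Gm10143 and 5.37% with Tmem258. Whether reads there were left uncounted was not tested, and the low value of Fen1 is uncertain. Ribonucleotide reductase makes deoxynucleotides from a large subunit, Rrm1, and a small one, Rrm2. Rrm1 read 3122 and 3013 against 2874 and 2788 (-0.12, interval -0.28 to 0.05), and Rrm2 overlapped at 969 and 819 against 1093 and 940 (0.19). Limma and edgeR called neither, and neither had an unadjusted p under 0.05.

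Levels can be set side by side between genes only per length of exon. Per kilobase of GENCODE M21 exon, averaged over the 4 libraries, Pole3 stood highest at 1326 normalised reads, followed by Pcna at 879, Mcm3 at 843, Mcm7 at 818 and Mcm5 at 816. The median member stood at 369. At the low end, apart from Fen1 at 9.2, were Pola1 at 39.3, Pole2 at 47.9, Mcm10 at 75.6 and Cdc6 at 78.9. The catalytic subunit of the priming polymerase and the CDC6 loader thus gave far fewer reads per kilobase than the helicase ring. The length used joins all annotated exons of a gene and can exceed that of the transcript present, so the order is approximate. Exon overlap touches few other members: 30 share no exon base with another gene, 8 share over 10% and 2 over 50%. The second of these is Gins2, with 67.3% shared with antisense Gse1, and Gins2 overlapped between the groups at 407 and 538 against 441 and 416. No source states the strand setting of the counting, so reads of such pairs cannot be told apart.

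**Figure D4:**
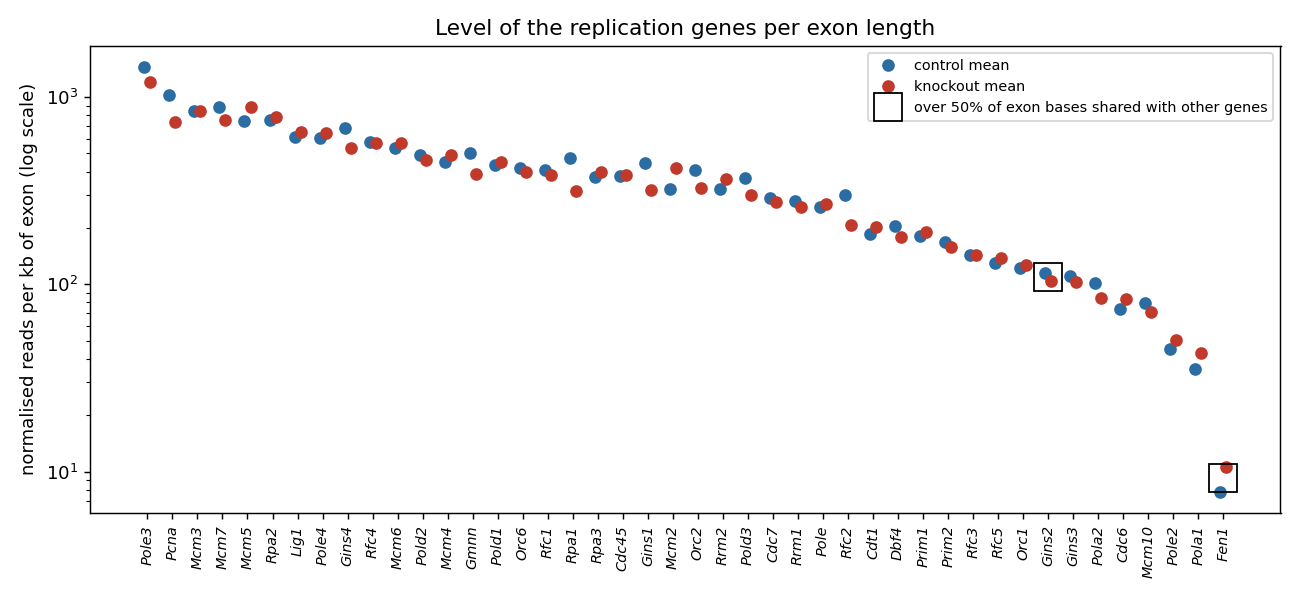
Mean normalised reads per kilobase of exon for each replication gene in controls and knockouts, on a log axis, ordered by level. Squares mark the 2 genes with over 50% of exon bases shared with other genes, Gins2 and Fen1. Pole3 stands highest at 1326 and Fen1 lowest at 9.2.

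Other replication and S phase genes, from lists also chosen with results of these data known, were called at shares near that of all genes. Of 31 further replication factors 6 (19.4%) were lower and 0 higher, with a median of -0.10, beside 13.5% lower among all genes, and edgeR called 3. With library totals the median of this list was 0.01, with 2 lower and 3 higher. The most counted of the 6 were Supt16 (3953 and 3855 against 3227 and 3327, -0.25, adjusted p = 0.0417) and Ssrp1 (-0.24, adjusted p = 0.0468), which together form the histone chaperone FACT. The third was Rnaseh2a, the catalytic subunit of RNase H2, at 1162 and 2177 against 872 and 845, where the controls lay 0.91 apart on the log2 scale. Supt16 and Ssrp1 lost the call without any 1 of the 4 libraries, with adjusted p from 0.124 to 0.216 and from 0.123 to 0.215, and Rnaseh2a lost it without each library except control 1, with adjusted p up to 0.183. Of 26 genes of S phase entry and nucleotide supply 4 were lower and 1 higher (19.2% called, beside 16.8% of all genes), with a median of 0.13 that turned to -0.14 and -0.16 under Sertoli and spermatogonia scaling. The 3 most counted were Tfdp1, the partner of E2F (2956 and 3101 against 2444 and 2502), the histone mRNA binding Slbp (2776 and 2748 against 2361 and 2167) and the dUTPase Dut (1745 and 1765 against 1447 and 1348), with differences of -0.29, -0.29 and -0.33. All 3 lost the call whichever library was left out, with adjusted p from 0.062 to 0.284. E2f1, named after its values were seen as the single higher gene, read 688 and 676 against 899 and 1018 (0.49, adjusted p = 0.0161, kept only without knockout 1). The 6 meiotic relatives of replication proteins had no call by limma or edgeR and 1 unadjusted p under 0.05. Their median was -0.24, with 4 genes below 0 and 2 above. The most counted, Meiob and Mcm8, differed by 0.15 and 0.19. Mki67, a marker of cycling cells, overlapped at 3651 and 4117 against 4502 and 4114 (0.15, interval -0.05 to 0.35). Pcna to Mki67 was 0.663 and 0.605 in the controls and 0.404 and 0.416 in the knockouts, and Mcm2 to Mki67 overlapped.

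The libraries also differed in markers of the testis cell types, and in bulk tissue fewer cells of a type and less RNA per cell cannot be told apart. All 16 pachytene and diplotene spermatocyte markers were called lower, with a median of -2.30, beside 13.5% of all genes. The marker lists were chosen with earlier results of these data known, so this count is description only. The summed level of the 16 was 65233 and 99946 in the controls and 23847 and 19259 in the knockouts. Examples were Hspa2 (-1.39), Ybx2 (-1.50) and Ldhc (-4.01), with adjusted p of 0.000293, 0.00137 and 0.000149. The 2 controls themselves lay 0.89 apart in the median of this list, with control 2 higher for all 16 genes. Control 2 was also the higher control for Hsf5, Rfc2 and Rpa1, by 0.31, 0.29 and 0.30, but barely for Pcna, by 0.04, and the lower one for Mcm2, by -0.17. Without control 2, 13 of the 16 remained called, with a median of -1.98, and no replication member did. Without knockout 3 the same number remained, with a median of -2.06, and again no replication member was called. The fold changes of the members called with all libraries stayed on the same side without control 2. They were -0.45 for Pcna, -0.39 for Rfc2, -0.43 for Rpa1 and 0.29 for Mcm2. Of all 44 members, 36 kept their sign without control 2. Calls over all genes also dropped, from 2366 lower to 889 without control 2 and 1112 without knockout 3.

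Spermatogonial markers, 21 of 22 tested, had 4 higher and 1 lower (23.8% called, beside 16.8% of all genes), a median of 0.28, and summed to 19612 and 17476 in the controls against 21258 and 21222 in the knockouts, with Nanos2 at 0 in control 1. Dmrt1 (0.37, adjusted p = 0.0232) and Uchl1 (0.28, 0.0435) rose and Id4 (-0.92, 0.00376) fell. With 1 library left out in turn, Uchl1 lost its call every time (adjusted p from 0.0535 to 0.246), Dmrt1 kept it only without control 1 (up to 0.17 otherwise), and Id4 lost it only without control 2 (0.0957). The median of this list is 0.01 after scaling to Sertoli markers, where no marker is called higher. Markers of premeiotic S phase and early prophase, 16 genes, had 0 higher and 3 lower (18.8%, beside 13.5% lower among all genes). The 3 were Meioc (-0.44), Hormad1 (-0.43) and Ythdc2 (-0.28). This list had a median of -0.01 and sums of 56361 and 58771 against 56476 and 48669. The direction of this list's calls was not stable: without knockout 3 there were 0 lower and 2 higher, and with library totals 2 lower and 2 higher, with a median of 0.10. Of 18 Sertoli markers 6 (33.3%, beside 3.28% of all genes) were higher, such as Aard (0.40), Cldn11 (0.32) and Inhbb (0.35), with a median of 0.26 and sums of 126233 and 119541 against 149519 and 142247. Scaled to spermatogonia markers, the Sertoli median was -0.03 and no Sertoli marker was called. Leydig, peritubular myoid, macrophage and endothelial markers gave 1 call in 27 genes tested (beside 16.8% of all genes), the Leydig gene Nr5a1 at 0.27. Their medians were -0.18, 0.06, 0.15 and 0.19 in that order. Of the 8 Leydig markers 6 lay below 0, and the Leydig median was 0.06 without control 2. Cldn11 and Nr5a1 lost the call whichever library was left out, with adjusted p from 0.0563 to 0.164 and from 0.0922 to 0.299. Inhbb kept it only without knockout 1, Aard lost it only without control 2 (0.187), Ythdc2 lost it every time, Hormad1 kept it only without knockout 1 and Meioc without control 1 or knockout 1. Without control 2 no marker of the spermatogonial, early prophase, Sertoli or Leydig lists was called. The part of these cell type differences in the values of Mcm2, Pcna, Rfc2 and Rpa1 was not tested.

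**Figure D5:**
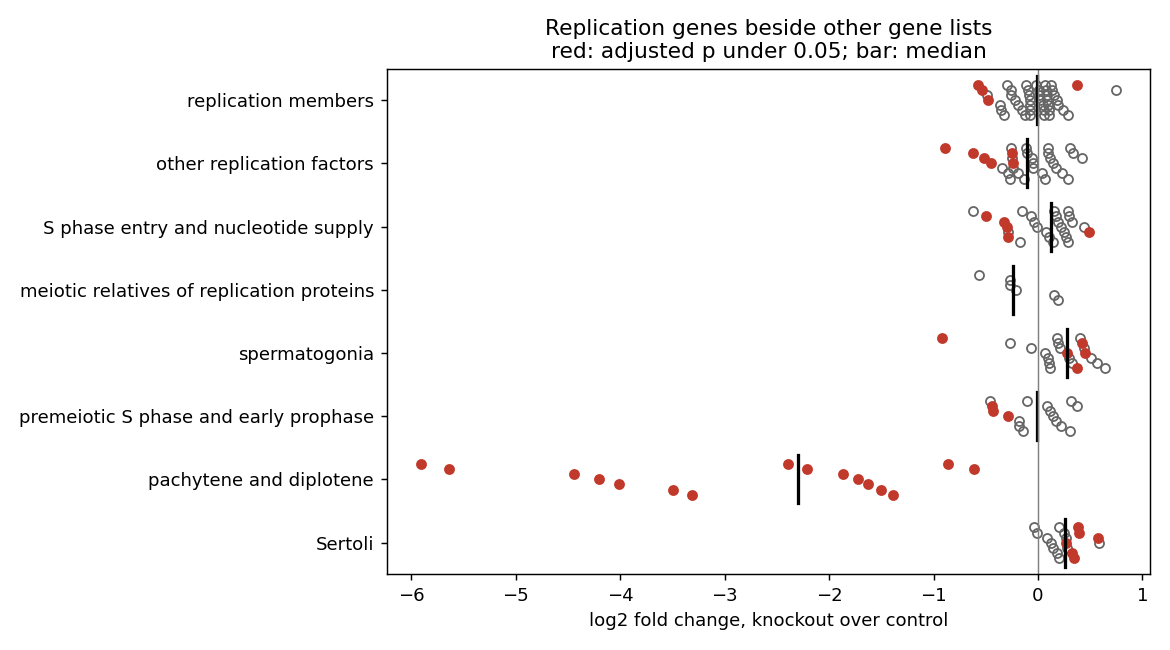
Log2 fold changes of the replication genes beside 7 other gene lists, with 1 circle per gene, called genes in red and the median as a bar. The replication genes centre on 0, with 4 called, while all 16 pachytene and diplotene markers lie below 0. The lists were chosen with earlier results of these data known.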

How the data were processed

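RNA of whole testis was sequenced at postnatal day 16. Per the submitters' processing notes, the tools were cutadapt, Bowtie2, featureCounts and DESeq2 with build mm39. Their versions, roles and strand setting are not stated. The authors deposited normalised read counts, a depth-scaled signal, with their own log2 fold changes, standard errors, test statistics (a score) and adjusted p-values. Whole reads were recovered from the step of each library (100% of values whole within 1e-06) and used only as counts in alternative tests; the values of the authors' file are themselves not whole counts.

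The main test was limma 3.58.1 (R 4.3.3) fitted to log2(value + 1), its prior variance following the mean, over the 17480 genes averaging 10 or more, Benjamini-Hochberg adjusted over all of them at 0.05. Fold changes are on that log2 scale, and intervals are 95%. Alternatives were pseudocounts, filters, scalings, edgeR 4.0.16 and DESeq2 1.42.0 on recovered reads, and leaving out each library. The script was tested on simulated counts with 50 changed genes per fold, drawn from all genes tested and not from the members. It called 4% of them at 1.25-fold, 22% at 1.5-fold, 52% at 2-fold and 74% at 4-fold, with 11 false calls. GENCODE M21 and RefSeq tables are of GRCm38, not the authors' build, and gave lengths, overlaps and promoters only.

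Members and lists were chosen with earlier results of these data known. Values by library are given for called members, Hsf5, Mki67 and the most counted member of each role; other members named, the ratios and E2f1 were chosen after values were seen. From each other list at most 3 genes are named: the called ones with the largest mean, or the 2 most counted where none is called. Of 6 samples, 2 were not analysed here.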

Additional observations from a re-analysis of the deposited data

How the results depend on the processing

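The median of the 44 replication genes, -0.01, was 0.10 with library totals, -0.27 scaled to Sertoli markers and -0.29 scaled to spermatogonia markers, and -0.06 to 0.04 with each library left out. Members called lower, 3, numbered 1 without a filter on low values, 5 with a mean value of at least 50, 0 without the mean-variance trend, 20 with Sertoli scaling, 13 with spermatogonia scaling and 0 to 4 with each library left out. Members called higher, 1, numbered 0 without the filter, 2 with a mean of at least 50, 0 without the trend, 2 with DESeq2, 2 with library totals, 0 with either marker scaling and 0 to 1 with each library left out. Over all genes, the 2366 lower became 815 without the filter, 40 without the trend, 4780 with Sertoli scaling, 3993 with spermatogonia scaling and 889 to 2096 with each library left out. The 573 higher became 37, 0, 54, 29 and 31 to 337 in the same order, and 1513 with library totals. The all-gene counts at 0 higher come from limma without its trend, where edgeR called 517. Pcna, Rfc2 and Rpa1 lay below 0 and Mcm2 above 0 under all 14 alternatives; the calls were kept under 11, 10, 10 and 7 of them. Without the trend their adjusted p were 0.118, 0.16, 0.147 and 0.176, and without the filter Pcna kept its call (0.0476) while the others read 0.103, 0.0885 and 0.0954. Mcm3, at 0.01, reversed to -0.26 with Sertoli scaling (adjusted p = 0.0458). This follows from the shift of -0.26 that this scaling gives all genes. Of 615 single-gene values of members, 504 kept both sign and side of the threshold, 18 lost a call and 32 gained one. Signs changed in 61, of which 60 were called in neither setting and 7, 19 and 20 came from library totals, Sertoli and spermatogonia scaling, which move all genes; the cause of the rest was not tested. No paired analysis was possible because no label pairs a control with a knockout. The analysed columns of the 2 groups share only replicate number 1, and no label says that a shared number marks a pair. With 2 libraries per group the median 95% interval of a member reached 0.22 to either side on the log2 scale, which is the precision of 1 value and not a limit of detection.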

Other observations

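Antisense neighbours of replication genes lay in both directions, which was not tested. Gm12743, Gm10143, Cops6 (beside Mcm7) and Wsb2 (beside Rfc5) read higher in both knockouts than in both controls. Ap4m1 (beside Mcm7), Vps35 (beside Orc6), Eif4a2 (beside Rfc4) and Lat2 (beside Rfc2) read lower in both. Lat2 was barely apart and near the floor, at 13.6 and 15.9 against 13.0 and 2.05. The other antisense neighbours, Ufd1, Gse1, Nif3l1, Gm15792, Tmem258 and Zswim9, overlapped between the groups. Among all genes tested, 29.8% were apart and higher and 31.9% apart and lower. Gm12743, which shares 10.8% of the exon bases of Orc1, read 10.7 and 12.9 normalised counts in the controls and 32.1 and 38.9 in the knockouts, while Orc1 overlapped at 483 and 364 against 436 and 446. Gm10143, antisense to Fen1, read 10.7 and 8.92 against 25.1 and 20.5. Gm12743 and Gm10143 were chosen for their values by library after these were seen.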
